A study of Mus musculus with 6 samples.

Results

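The EGR zinc finger factors, the NR4A orphan nuclear receptors and the NAB corepressors were followed across 6 single-colour Agilent arrays of mouse bone marrow-derived mast cells (BMMCs). The set holds Egr1, Egr2, Egr3, Egr4, Nab1, Nab2, Nr4a1, Nr4a2 and Nr4a3, which is 9 of the 29590 genes on the array. Members were taken by symbol: every noncontrol probe whose gene name in the scanner files was 1 of these symbols, which gave 11 probes on 20 of the 43020 noncontrol spots. Nab2 and Nr4a2 had a pair of probes each, and the Nr4a3 probe was printed on 10 spots. Genes with several probes are described by the one that was brightest on average.

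Mast cells were grown from mouse bone marrow for 4 to 6 weeks in interleukin-3 (10 ng/ml), at which point more than 97% carried both Kit and the IgE receptor alpha chain, per the labels. Each of the 6 groups had 1 array, and its RNA was pooled from 3 samples before hybridisation. The first group was Pla2g3+/+ BMMCs without fibroblasts and the second was BMMCs labelled Pla2g3-/- without fibroblasts. The third and the fourth were the same mast cell genotypes after 4 days on a monolayer of WT Swiss 3T3 cells, an established mouse embryo fibroblast line. The fifth was WT BMMCs on Lpar1+/+ Swiss 3T3 cells and the sixth was WT BMMCs on Lpar1-/- Swiss 3T3 cells. All 4 cocultures received stem cell factor (100 ng/ml). The Pla2g3 product is a secreted phospholipase A2, and that of Lpar1 is a receptor for lysophosphatidic acid. The Lpar1-/- fibroblasts were made with Cas9 and cloned from single cells, so they may be 1 clone. After coculture, mast cells were taken either as the cells that did not reattach after trypsin treatment or with beads against CD117 (Kit). The route used for the arrays, the strain and age of the mice, and any stem cell factor in the cultures that lacked fibroblasts are not given in the sources used here. Wherever 6 values follow for a gene, they are in the order of the groups above.

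Immediate early genes are transcribed within minutes of a receptor signal without new protein synthesis, through factors such as SRF, CREB and MEF2 that are already present in the cell. EGR1 to EGR4 bind GC-rich sites through zinc fingers, and NAB1 and NAB2 bind EGR proteins and repress their transcriptional activity, with Nab2 itself an EGR target in several cell types. NR4A1 (Nur77), NR4A2 (Nurr1) and NR4A3 (Nor1) are nuclear receptors that act without a known physiological ligand, and their activity is set largely by how much of them is made. In mast cells, members of both families are induced by IgE receptor signalling.

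The stretches in front of the start sites are shown first, as sequences that such factors could read. Whether these letters bear on the members' levels was not tested. Sites for MEF2 were not searched, so letters left in lower case may still hold them. RefSeq's promoter table (assembly GRCm38.p6) matched 7 of the 9 members, and Egr1 and Egr3 had no entry. Each line gives the 250 bases before the annotated start, 5′ to 3′ on the gene's strand, in lower case. Capitals mark the core of the cAMP response element (TGACG, or its reverse complement CGTCA), a serum response element (Egr2) or an EGR site (GCGNGGGCG or its reverse complement CGCCCNCGC). The windows are Nr4a1 at chr15:101266596-101266845 (plus strand), Nr4a2 at chr2:57124004-57124253 (minus strand), Nr4a3 at chr4:48045055-48045304 (plus strand), Egr2 at chr10:67537619-67537868 (plus strand), Egr4 at chr6:85513590-85513839 (minus strand) and Nab1 at chr1:52500449-52500698 (minus strand). The Egr2 window belongs to 1 of 5 starts listed for that gene.
Nr4a1: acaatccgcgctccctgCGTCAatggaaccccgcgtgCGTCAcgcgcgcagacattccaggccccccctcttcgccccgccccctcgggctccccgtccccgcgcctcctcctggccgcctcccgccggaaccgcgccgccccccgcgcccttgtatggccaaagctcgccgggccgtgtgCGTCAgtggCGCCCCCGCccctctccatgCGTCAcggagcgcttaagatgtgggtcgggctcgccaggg
Nr4a2: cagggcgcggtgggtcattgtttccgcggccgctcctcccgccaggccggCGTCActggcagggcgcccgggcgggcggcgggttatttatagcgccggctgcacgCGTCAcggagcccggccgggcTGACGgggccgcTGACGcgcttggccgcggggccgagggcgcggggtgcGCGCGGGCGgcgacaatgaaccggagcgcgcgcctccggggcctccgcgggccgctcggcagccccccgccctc
Nr4a3: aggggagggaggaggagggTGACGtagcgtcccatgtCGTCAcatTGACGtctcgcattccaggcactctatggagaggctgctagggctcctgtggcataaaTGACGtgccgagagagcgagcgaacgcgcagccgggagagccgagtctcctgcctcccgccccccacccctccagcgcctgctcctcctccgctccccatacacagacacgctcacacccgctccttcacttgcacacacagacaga
Egr2: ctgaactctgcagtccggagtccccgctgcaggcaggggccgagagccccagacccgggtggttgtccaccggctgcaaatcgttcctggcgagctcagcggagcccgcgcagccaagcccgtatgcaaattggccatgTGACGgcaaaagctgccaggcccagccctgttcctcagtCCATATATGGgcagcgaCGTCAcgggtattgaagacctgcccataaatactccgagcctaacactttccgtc
Egr4: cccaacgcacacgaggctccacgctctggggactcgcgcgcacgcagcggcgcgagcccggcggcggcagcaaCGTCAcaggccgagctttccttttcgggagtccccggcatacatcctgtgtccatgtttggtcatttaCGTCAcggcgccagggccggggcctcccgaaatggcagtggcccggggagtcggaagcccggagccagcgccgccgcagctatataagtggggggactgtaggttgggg
Nab1: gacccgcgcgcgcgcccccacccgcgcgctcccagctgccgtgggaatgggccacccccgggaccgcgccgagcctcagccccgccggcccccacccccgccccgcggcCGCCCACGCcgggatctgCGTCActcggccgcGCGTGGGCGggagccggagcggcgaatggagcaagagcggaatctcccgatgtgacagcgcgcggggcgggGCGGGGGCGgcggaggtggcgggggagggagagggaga

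All 3 NR4A windows held 4 copies of the cAMP response element core, a number reached by 45 of the 32851 promoters in the table (0.137%). Egr2 and Egr4 held 2 copies each, and at least 2 copies occurred in 3.9% of promoters. Nab1 held 1 copy, and at least 1 occurred in 17.8%. The window of Nab2, at chr10:127666704-127666953 (minus strand), held none of the motifs searched. Egr2 alone held the serum response element, which stood 72 to 63 bases before its start and occurred in 1.47% of promoters. EGR sites were found 3 times in front of Nab1, once in front of Nr4a1 and once in front of Nr4a2; at least 1 occurred in 4.7% of promoters and at least 3 in 0.14%. None of the 7 windows held the complete cAMP response element TGACGTCA (1.55% of promoters), the NR4A monomer site AAAGGTCA (1.34%) or the AP-1 site TGANTCA (6.75%). Both strands were searched, and TGACGTCA contains the core on each strand. The windows of the members were 61.6% to 80.8% G and C, against a median of 52.4% over all promoters, so motifs made of G and C were more likely in them. A match is a description of these letters and not a measured binding site.

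**Figure D1:**
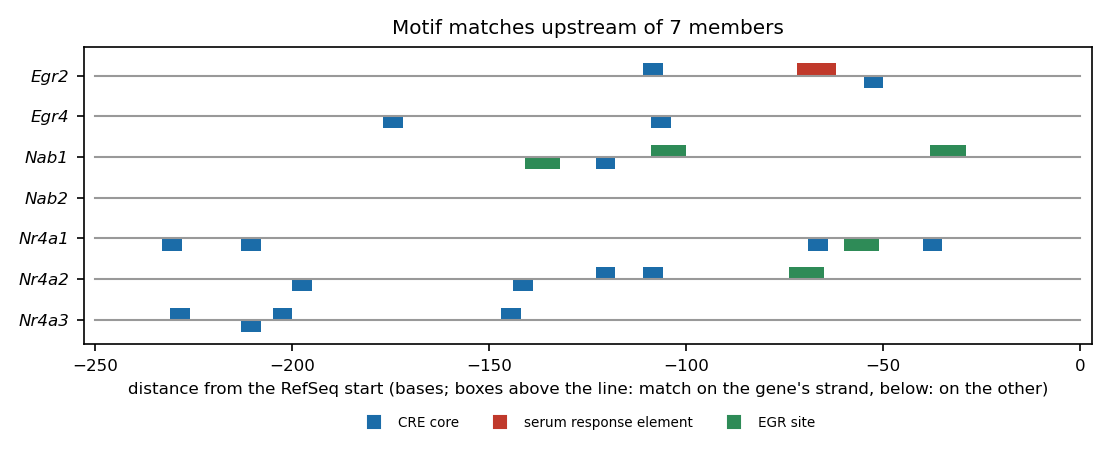
Positions of motif matches in the 250 bases before the start of the 7 members with a promoter entry; the horizontal axis is the distance to the start in bases, each line is a promoter and each mark is a match, coloured by motif. Each NR4A promoter carries 4 cAMP response element cores, Nab1 carries 3 EGR sites and Nab2 carries no match.

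The probes themselves are 60 bases long, and 4 are shown because the results below lean on them: Egr3 was near the detection limit on several arrays, Nab2 and Nr4a2 were read by independent probes, and Nr4a3 was read on 10 spots. The longest run that any member's probe shared with the probe of another member was 8 bases. Coordinates are the mm9 positions in the scanner files. Exons and untranslated regions are not named, since an annotation of mm9 was not used here. The Egr3 probe lies at chr14:70479222-70479281 (plus strand), the dimmer Nab2 probe at chr10:127101413-127101472 (minus strand) and the brighter Nr4a2 probe at chr2:56960699-56960758 (minus strand). The Nr4a3 probe maps over 3187 bases at chr4:48080690-48083876 (plus strand), so its 60 bases are split in the genome.
Egr3: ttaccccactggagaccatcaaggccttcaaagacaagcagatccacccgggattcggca
Nab2: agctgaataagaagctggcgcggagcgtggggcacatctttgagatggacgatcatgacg
Nr4a2: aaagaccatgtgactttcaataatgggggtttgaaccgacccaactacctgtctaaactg
Nr4a3: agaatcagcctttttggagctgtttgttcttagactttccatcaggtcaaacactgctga

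The other probes are given by position alone. They lie at chr18:35024395-35024454 (Egr1, plus strand), chr10:67004798-67004857 (Egr2, plus strand), chr6:85461153-85461212 (Egr4, minus strand), chr1:52515132-52515191 (Nab1, minus strand), chr10:127098009-127098068 (the brighter Nab2 probe, minus strand), chr15:101105071-101105130 (Nr4a1, plus strand) and chr2:56959637-56959696 (the dimmer Nr4a2 probe, minus strand).

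Between 70.7% and 80.4% of spots were well above background on each array, and none was saturated. A group with a single array has no replicate, so no p-value is given, and the pooling of 3 samples left no measure of the spread between cultures. Levels are on a log2 scale on which 0 is the 75th percentile of the array's processed intensities. The scanner software put the error of a bright spot at 0.14 on this scale, which makes 0.20 for a difference between arrays. As a yardstick, the pair of cocultures in which both cell types were wild type (the third and the fifth groups) differed with an SD of 0.26 over 21930 genes, and 95% of genes lay within 0.54. Both arrays without fibroblasts lay on slide 1 and all 4 cocultures on slide 2, which means that the effects of coculture and of the slide cannot be told apart. Nor can the fibroblasts be told apart from the harvest after coculture, or from stem cell factor if the other cultures lacked it. Pla2g3 itself read -6.31, 0.51, -7.31, -1.84, -6.58 and -4.85, which is higher and not lower under the label Pla2g3-/-. Those arrays are called by their label throughout, because the position of the deleted part relative to this probe was not among the sources used here. The Lpar1 levels in these RNAs, -2.84, -2.85, -4.34, -3.58, -4.14 and -3.89, do not check the genotype of the fibroblasts.

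Across the 6 arrays the members shared a pattern with 3 steps. For Nab1 the upper step was small: its Pla2g3+/+ coculture lay 0.24 above the culture without fibroblasts, inside the 0.54 of the yardstick. All 9 were highest in the pair of wild-type cocultures, where both arrays lay above the other 4 arrays; 24.4% of the 24708 genes well above background somewhere were ordered that way. Null coculture here means, by label alone, the one labelled Pla2g3-/- or the one on Lpar1-/- fibroblasts. The arrays without fibroblasts were intermediate for 7 members, and both null cocultures lay below them. Nab2 and Egr3 were the exceptions, each with 1 null coculture at or above the level without fibroblasts. The lowest array of every member was a null coculture. The share of all genes with null cocultures lowest, or below the arrays without fibroblasts, was not counted, so these steps have no background to compare with.

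**Figure D2:**
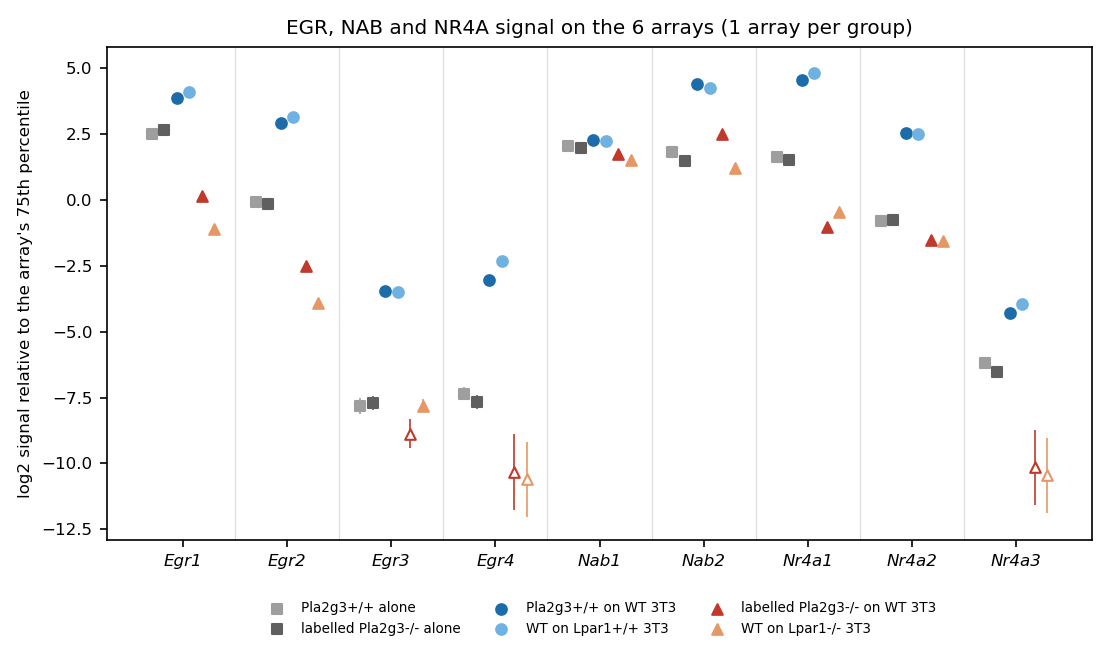
Level of each member on the 6 arrays, on the log2 scale with the array's 75th percentile at 0; 1 array per group, bars give the scanner software's spot error, and open symbols mark arrays where the probe was not well above background. The wild-type cocultures are the highest arrays for all 9 genes, and levels of different genes come from different probes and cannot be ranked against each other.

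Egr1, the founding member and a serum- and growth factor-induced activator, read 2.49 and 2.64 without fibroblasts, 3.86 in the Pla2g3+/+ coculture, 0.16 in the coculture labelled Pla2g3-/-, 4.09 on Lpar1+/+ fibroblasts and -1.10 on Lpar1-/- fibroblasts. Without fibroblasts it was already above the array's 75th percentile, and both null cocultures lay well below that level. Egr2 (Krox20), known for its roles in myelination and in lymphocyte tolerance, read -0.09, -0.16, 2.92, -2.50, 3.15 and -3.92. Egr2 spanned more than any other member measured above background on all 6 arrays, with the wild-type cocultures at the top and the Lpar1-/- coculture at the bottom.

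Egr3, a factor that acts with Egr2 in lymphocytes, read -7.82, -7.72, -3.44, -8.87, -3.51 and -7.80, and the value in the coculture labelled Pla2g3-/- was not well above background. Egr4, best known from neurons and the germ line, read -7.36, -7.66, -3.03, -10.32, -2.34 and -10.61, and neither null coculture was well above background. Both were near the detection limit without fibroblasts and far above it in the wild-type cocultures. The spot error of the dim Egr4 values was 1.44, so the null cocultures have no order for this gene.

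Nab1, the corepressor usually described as constitutive, read 2.04, 1.97, 2.28, 1.72, 2.24 and 1.49. Its whole range was under 1 on the log2 scale, and it was the flattest member. Nab2, the inducible corepressor, read 1.81, 1.48, 4.39, 2.48, 4.24 and 1.19. Nab2 was the only member whose coculture labelled Pla2g3-/- stayed above both arrays without fibroblasts. Its dimmer probe read -6.34, -6.18, -3.26, -5.93, -3.45 and -6.62, with the same pair of arrays at the top.

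Nr4a1, which is widely used as a reporter of antigen receptor signalling, read 1.64, 1.52, 4.56, -1.05, 4.80 and -0.47. Unlike Egr1 and Egr2, it was lower in the coculture labelled Pla2g3-/- than in the one on Lpar1-/- fibroblasts, by 0.57 on the log2 scale, which is close to the 0.54 of the yardstick. Nr4a2, essential for midbrain dopamine neurons, read -0.81, -0.76, 2.55, -1.53, 2.49 and -1.56 with the brighter probe and -1.84, -1.94, 1.41, -2.88, 1.42 and -2.78 with the other. With either probe the arrays without fibroblasts, the wild-type cocultures and the null cocultures formed 3 close pairs.

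Nr4a3, which overlaps in function with Nr4a1 in blood cells, read -6.18, -6.52, -4.28, -10.15, -3.96 and -10.46. Its repeated spots had SDs of 0.16, 0.29, 0.07, 0.12, 0.08 and 0.11 over 10 spots, 9 on the Lpar1-/- array, where 1 outlier spot was dropped. On both null cocultures 0 spots were well above background, against all 10 on each of the other arrays. The spread between these repeated spots is technical and says nothing of the spread between cultures.

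On wild-type fibroblasts, Pla2g3+/+ mast cells had higher levels of 8 of the 9 members than without fibroblasts, counted at 2-fold or more, and none was lower. Over the 22615 genes compared, 13.0% were higher and 7.52% lower by the same rule. The median difference of the members was 2.92 on the log2 scale, against 0.13 over all genes. Egr3 was 20.8-fold higher, Egr4 20.1-fold, Egr2 8.07-fold and Egr1 2.59-fold. Among the receptors, Nr4a2 was 10.2-fold, Nr4a1 7.55-fold and Nr4a3 3.73-fold higher. Nab2 was 5.98-fold higher (log2 difference 2.58, and 3.08 with the dimmer probe), while Nab1 differed by 1.18-fold. Egr1 had the smallest difference of the EGR genes. Quantile normalization moved the median over all genes from 0.13 to 0, and the share of calls that were higher from 63.4% to 48.8%. With normexp background correction, which compresses dim probes, the log2 differences of Egr3, Egr4 and Nr4a3 were 1.49, 1.74 and 0.63 in place of 4.38, 4.33 and 1.90.

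Under the label Pla2g3-/-, the same step onto fibroblasts gave 0 members higher and 4 lower, against 11.4% of 22349 genes higher and 7.30% lower. Nr4a1 was 5.94-fold lower than without fibroblasts, Egr1 5.58-fold and Egr2 5.05-fold. Nr4a3 was at least 2.96-fold lower, a bound because the coculture was not well above background. Such a bound is taken against the lowest signal well above background on that array. The bounds for Egr3 and Egr4, at least 1.29-fold and at least 1.34-fold lower, were too near the detection limit to count. Nr4a2 was 1.70-fold lower and Nab2 1.99-fold higher (1.19-fold with its dimmer probe and a log2 difference of 0.62 with the mean of both), all within 2-fold, and Nab1 differed by -0.24 on the log2 scale. With quantile normalization the share of calls higher went from 61.0% to 50.3% and Nab2 passed 2-fold. With normexp the log2 difference of Nr4a3 was -0.28.

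**Figure D3:**
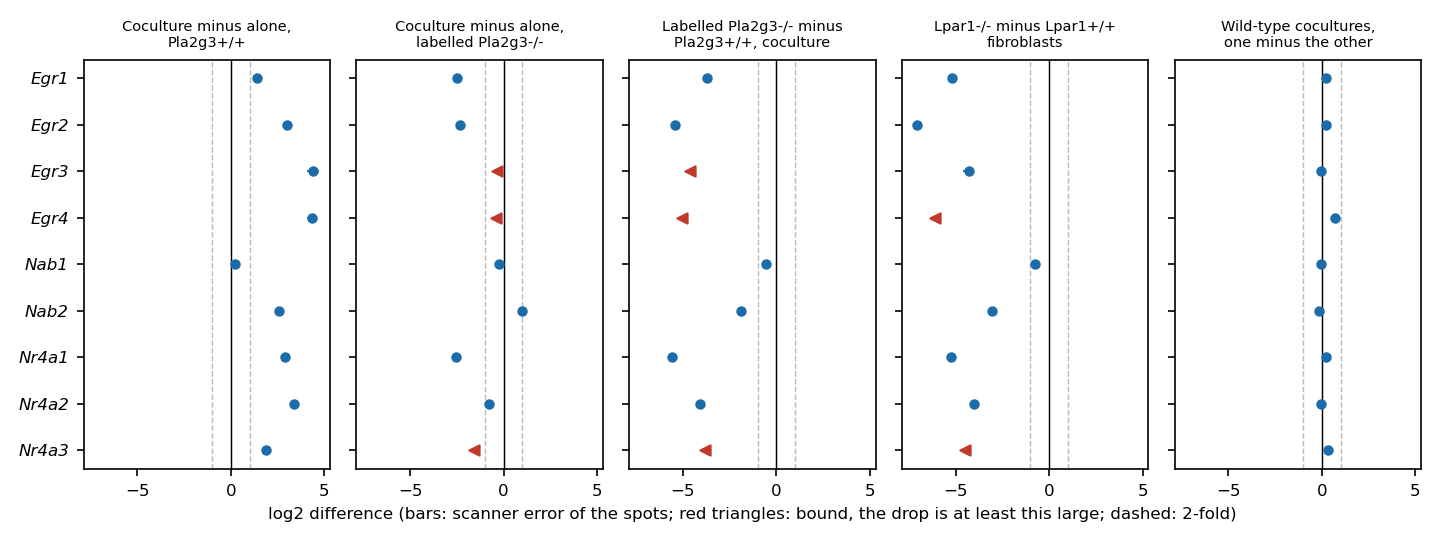
Log2 differences of the 9 members in 5 comparisons, 1 panel each; blue points are differences between single arrays with the scanner software's spot error as bars, red triangles are bounds (the difference is at least this large), and the dashed lines mark 2-fold. In the first panel 8 members are higher, in the third and the fourth 8 are lower, and in the pair of wild-type cocultures none passes 2-fold; Nab1 stays within 2-fold throughout.

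Without fibroblasts, the label of the mast cells made no 2-fold difference to any member. The differences ran from -0.35 (Nr4a3) to 0.15 (Egr1) with a median of -0.07, where 0.423% of 21752 genes were higher by 2-fold and 1.58% lower. All 9 lay inside the 0.54 that held 95% of genes in the wild-type pair. In that pair the members differed by -0.15 to 0.69, and 0.803% of 24025 genes were higher by 2-fold and 0.166% lower. Egr4 (0.69) was the only member outside 0.54, and the other 8 were within 0.31. In the pair the share of calls higher was 82.8%, and 45.7% with quantile normalization.

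Between cocultures, 8 of 9 members were lower under the label Pla2g3-/- than in Pla2g3+/+ cells, while 10.4% of 22505 genes were lower and 9.10% higher. The median was -4.08, with bounds at their bound, and -0.08 over all genes. Nr4a1 was 48.6-fold lower, Egr2 42.8-fold, Nr4a2 16.9-fold and Egr1 13.1-fold. Egr4 was at least 33.4-fold, Egr3 at least 25.1-fold and Nr4a3 at least 14.0-fold lower. Nab2 was 3.76-fold lower (log2 difference -1.91, and -2.67 with the dimmer probe), and Nr4a2 gave -4.08 and -4.28 with its probes. Nab1 was 1.47-fold lower. Both arrays lay on the same slide. Normexp gave -1.46 for Egr3, -1.87 for Egr4 and -0.97 for Nr4a3 in place of bounds of -4.65, -5.06 and -3.81.

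The same 8 members were lower in WT mast cells on Lpar1-/- fibroblasts than on Lpar1+/+ fibroblasts, with 8.84% of 24545 genes lower and 11.3% higher. Egr2 was 135-fold lower, Nr4a1 38.6-fold, Egr1 36.7-fold, Egr3 19.6-fold and Nr4a2 16.5-fold. Egr4 was at least 69.3-fold and Nr4a3 at least 22.4-fold lower. Nab2 was 8.26-fold lower (-3.05, and -3.17 with the dimmer probe) and Nab1 1.68-fold. The median was -4.49, against -0.05 over all genes. Normexp gave -1.58 for Egr3, -2.71 for Egr4 and -1.41 for Nr4a3 in place of -4.29, -6.11 and -4.49. This comparison shares no array with the preceding one.

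The difference between both coculture effects, in which the slide cancels, was lower under the label Pla2g3-/- for 8 of 9 members, with a median of -4.12. Over 23139 genes, 10.4% were lower and 9.56% higher. It was -5.49 for Nr4a1, -5.35 for Egr2, -4.12 for Nr4a2, -3.85 for Egr1 and -1.59 for Nab2. For Egr3 and Egr4 it was -4.75 or lower and for Nr4a3 -3.46 or lower. Nab1 gave -0.49. Normexp gave -1.47 for Egr3, -1.91 for Egr4 and -0.91 for Nr4a3.

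Both comparisons in this paragraph were added after the values were seen. Against Pla2g3+/+ cells without fibroblasts, on the other slide, WT cells on Lpar1-/- fibroblasts had 5 members lower, with 13.2% of 23725 genes higher and 7.19% lower. Egr2 was 14.3-fold and Nr4a1 4.32-fold lower, Egr1 had a log2 difference of -3.60, and Nr4a3 was at least 4.84-fold and Egr4 at least 2.13-fold lower. Egr3 (0.01), Nab1 (-0.55), Nab2 (-0.61) and Nr4a2 (-0.75) stayed within 2-fold. Here quantile normalization moved the share of calls higher from 64.7% to 50.7% and the median over all genes from 0.15 to 0. Normexp gave -0.61 for Nr4a3 and -0.38 for Egr4. Between the null cocultures themselves, 3 of the 7 members that could be compared were lower on Lpar1-/- fibroblasts than under the label Pla2g3-/-, against 1.17% of 23659 genes lower and 5.07% higher. These were Egr2 (2.69-fold), Nab2 (2.44-fold) and Egr1 (2.40-fold). The dimmer Nab2 probe gave 1.62-fold, and with the mean of both probes (-0.99) Nab2 no longer passed 2-fold. Nr4a1 (0.57), Nr4a2 (-0.03) and Nab1 (-0.23) were within 2-fold, Egr3 had a bound of 0.28, and Egr4 and Nr4a3 were not well above background on either array. The share of calls higher was 81.3%, and 56.6% with quantile normalization.

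The RNA of the cocultures also held fibroblast messages, and in bulk RNA fewer cells of a type and less RNA per cell cannot be told apart. Summed over 25 fibroblast markers on a linear scale (1 is the 75th percentile of the array), the level was 4.46, 3.83, 43.6, 20.3, 44.2 and 46.9. Of these markers 13 were well above background on each array without fibroblasts and 22 to 24 on the cocultures. In the coculture labelled Pla2g3-/-, 13 of 23 compared markers were lower and none was higher than in Pla2g3+/+ cells (median -1.12). On Lpar1-/- fibroblasts 8 of 24 were higher and 2 lower than on Lpar1+/+ fibroblasts (median -0.05), with Thy1, a surface glycoprotein, at 7.61 and Acta2, smooth muscle actin, at 2.76 on the log2 scale. The part of these differences in the members' levels was not tested for either coculture.

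Mast cell markers were high on all 6 arrays, with 14 of 15 well above background without fibroblasts and all 15 in coculture; Mrgprb1, a receptor gene of connective tissue mast cells, was the one missing. Their sum was 603, 576, 795, 758, 764 and 653, led by Cpa3, a mast cell protease, at 6.96, 6.94, 7.21, 7.29, 7.14 and 7.07. The sum hides changes within the list: 7 of the 15 were higher and none lower in the Pla2g3+/+ coculture than without fibroblasts, and 6 were higher and none lower under the label Pla2g3-/-. Between cocultures, 6 were lower and none higher under the label Pla2g3-/- (down to -6.12), and again 6 were lower and none higher on Lpar1-/- fibroblasts (down to -8.07). Mrgprb1 was the lowest in both. Tpsab1, a tryptase, read -3.50, -5.18, 4.21, 0.61, 4.39 and -0.17, and Hdc, which makes histamine, read 0.83, 0.26, 2.75, 0.46, 2.32 and -0.97. Both were highest in the pair of wild-type cocultures, as the members were, and the part of this in the members' levels was not tested.

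The sum over 15 macrophage and dendritic cell markers was 6.02, 4.69, 11.3, 4.78, 11.2 and 3.53, and its height in the wild-type cocultures rested on Cd68. Cd68, a lysosomal protein, read 0.79, 0.63, 3.13, 1.24, 3.12 and 0.08, and without it the sum was 4.30, 3.14, 2.58, 2.41, 2.49 and 2.48, highest without fibroblasts. A linear sum hides dim markers. Mrc1 read -5.65, -7.58, -2.37, -9.21, -2.37 and -7.60, also highest in the wild-type cocultures. It was not well above background in the coculture labelled Pla2g3-/-. Itgax read -2.60, -2.56, -2.77, 0.16, -2.79 and -0.14, highest in the null cocultures. Between 12 and 14 of these markers were well above background on each array, and Xcr1, a marker of cross-presenting dendritic cells, was on none. Of 13 compared, 3 were higher and 4 lower in the Pla2g3+/+ coculture than without fibroblasts (median -0.02). Between cocultures, 1 was higher and 4 were lower under the label Pla2g3-/- (13 compared), and 1 was higher and 4 lower on Lpar1-/- fibroblasts (14 compared). The part of these cells in the members' levels was not tested. Granulocyte markers (20) summed to 76.8, 26.1, 22.4, 10.8, 29.1 and 22.3, sums led by S100a9 on the Lpar1-/- array and by Ctsg on the others. Ctsg read 4.96, 4.51, 4.06, 2.92, 4.52 and 2.81, so these sums follow Ctsg more than the list. The sum was lower on Lpar1-/- than on Lpar1+/+ fibroblasts although most compared markers were higher there. In the Pla2g3+/+ coculture 1 of 20 was higher and 15 lower than without fibroblasts (median -2.94), and under the label Pla2g3-/- 3 of 18 were higher and 7 lower. Between cocultures 3 of 18 were higher and 6 lower under the label Pla2g3-/-, and 11 of 18 were higher and 1 lower on Lpar1-/- fibroblasts (median 1.27). Without fibroblasts 14 of 19 were lower under the label Pla2g3-/-, where no member differed by 2-fold. The part of granulocyte RNA in the members' levels was not tested. Platelet markers (6) summed to 11.0, 5.90, 4.67, 4.80, 4.72 and 4.77.

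**Figure D4:**
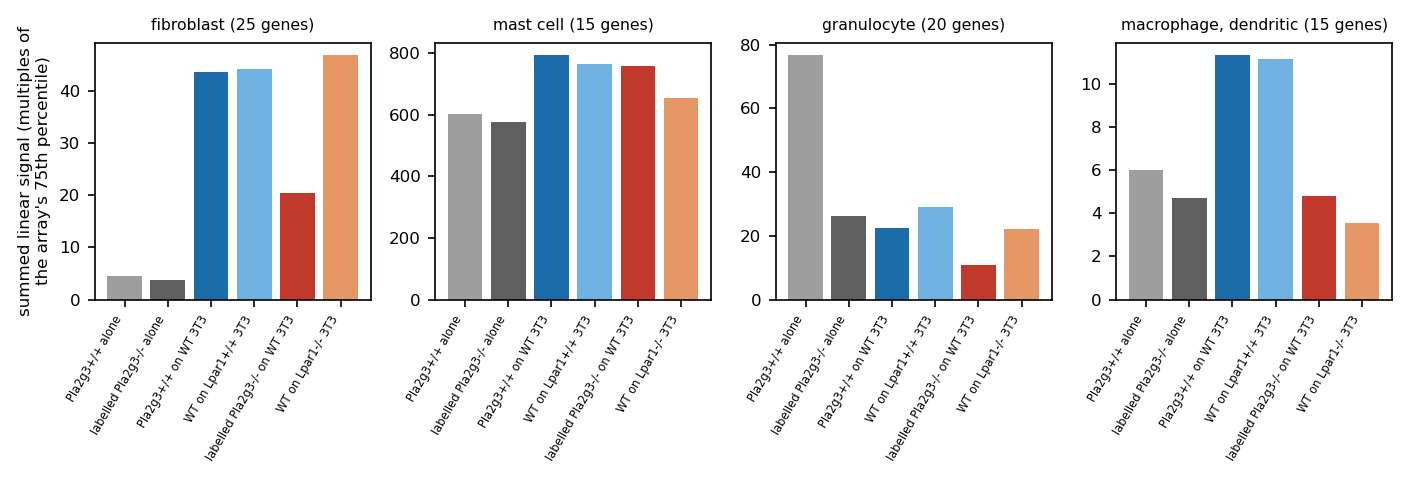
Summed linear level of the cell type marker lists on each array, in multiples of the 75th percentile of that array; each bar is 1 array, each panel has its own axis from 0, and there are no error bars because groups have 1 array. The fibroblast sum is 4.46 and 3.83 without fibroblasts, where Timp3 leads it, and 20.3 to 46.9 in coculture. The macrophage and dendritic sum of 11.3 and 11.2 in the wild-type cocultures is mostly Cd68.

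Of 41 other immediate early genes, 21 were higher and 1 lower in the Pla2g3+/+ coculture than without fibroblasts (median 1.06), against 13.0% and 7.52% of all genes. Ier5l was 29.8-fold higher, Ccn1, a matricellular protein, 28.5-fold and Fosl1, an AP-1 subunit, 16.8-fold, and Fos was 2.65-fold lower. Under the label Pla2g3-/-, coculture left 11 higher and 13 lower (median 0.05), against 11.4% and 7.30%. There Klf2 was 49.8-fold lower, Fosb 36.7-fold and Dusp6, a phosphatase of ERK, 21.5-fold, while Ier5l was 17.0-fold, Ccn2 at least 13.5-fold and Trib1 11.8-fold higher. Without fibroblasts 1 of 40 was higher under the label Pla2g3-/-, Fos (2.59-fold), and 1 was lower, Sik1 (at least 6.44-fold).

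Between cocultures, 1 of the 41 was higher and 27 lower under the label Pla2g3-/- (-6.80 to 2.10), and 3 were higher and 28 lower on Lpar1-/- fibroblasts (-6.50 to 3.52). Of all genes, 9.10% were higher and 10.4% lower in the former comparison, and 11.3% and 8.84% in the latter. Fosb, the AP-1 subunit that led both, read 2.31, 2.92, 4.52, -2.28, 4.96 and -1.54, a difference of 112-fold and of 90.7-fold. Like Egr1 and Egr2, Fosb was highest in the wild-type cocultures and lowest in the null ones. Dusp6 was 25.9-fold and 15.7-fold lower, and Dusp4 24.5-fold and 13.8-fold. Btg2, an antiproliferative gene, went the other way and was 4.28-fold and 3.17-fold higher. On Lpar1-/- fibroblasts Ccn2 (11.5-fold) and Ptgs2 (2.72-fold) were higher too. In the wild-type pair only Maff (2.47-fold) of the 41 passed 2-fold.

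**Figure D5:**
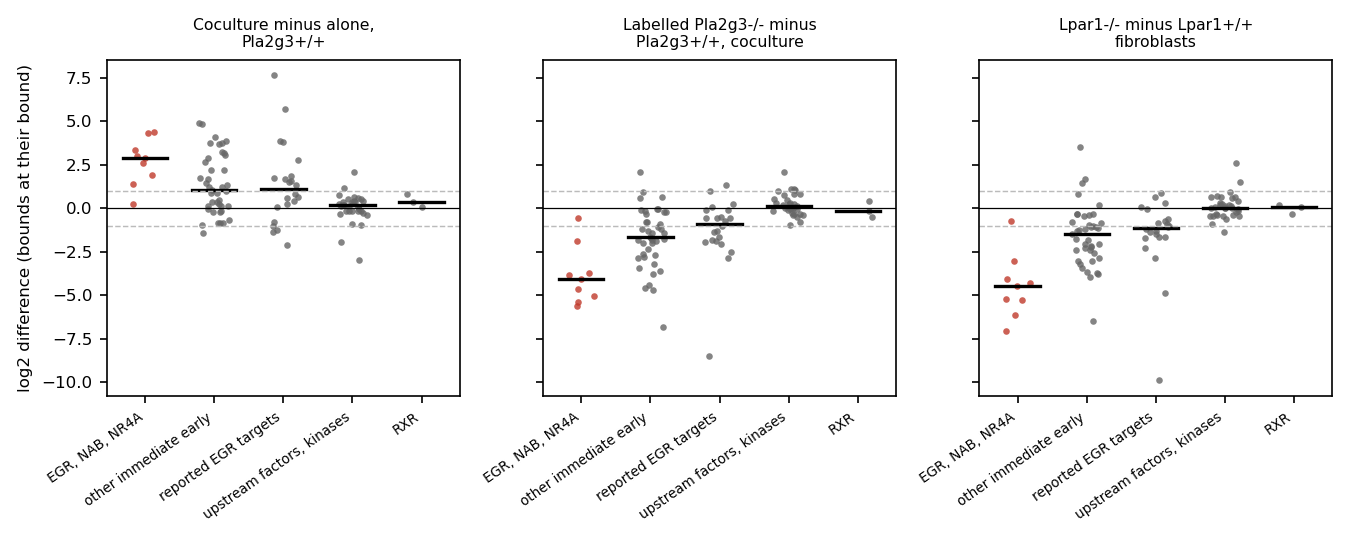
Log2 differences of the members (red) and of the genes of 4 lists (grey) in 3 comparisons; each point is a gene, bounds are drawn at their bound, black bars are medians and dashed lines mark 2-fold. In the Pla2g3+/+ coculture 21 of 41 other immediate early genes are higher, and 27 and 28 of them are lower in the null cocultures, while the RXR genes stay within 2-fold.

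Genes upstream of the immediate early response were described from a list of 33. Of these genes for SRF, its ternary complex partners, CREB, CRTC coactivators, MEF2, class IIa histone deacetylases, ERK pathway kinases, calcineurin and NFAT, 32 could be compared in the Pla2g3+/+ coculture, and 2 were higher and 2 lower (13.0% and 7.52% of all genes). Rps6ka2 (4.31-fold) and Creb1 (2.21-fold) were higher, and Hdac9 (7.93-fold) and Crtc1 (3.81-fold) lower. Under the label Pla2g3-/-, coculture left 4 of 32 higher (11.4% of all genes), Elk3 (3.11-fold), Rps6ka2 (2.93-fold) and Nfatc1 (2.09-fold) among them, and 1 lower (7.30%), Hdac9 (4.16-fold). Between cocultures 5 of 32 were higher and none lower under the label Pla2g3-/- (9.10% and 10.4% of all genes), led by Crtc1 (4.20-fold), Crtc3 (2.14-fold) and Hdac9 (2.13-fold). On Lpar1-/- fibroblasts Crtc1 (6.14-fold) and Hdac9 (2.80-fold) were higher and Rps6ka2 (2.56-fold) was lower, out of 33 (11.3% of all genes higher and 8.84% lower). Crtc1, a CREB coactivator, read 1.41, 1.30, -0.52, 1.55, -0.68 and 1.94, so it was lowest where the members were highest. None of the 33 passed 2-fold in the wild-type pair or, of 32, between mast cell labels without fibroblasts. The RXR genes, whose products pair with NR4A1 and NR4A2, stayed within 2-fold in each of these comparisons (0 of 3).

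A list of 22 genes that have been reported as EGR targets had 11 higher and 4 lower in the Pla2g3+/+ coculture (median 1.09), where 13.0% of all genes were higher and 7.52% lower. Its leading members were F3 (at least 201-fold), Ccnd1 (51.7-fold) and Pdgfb (14.7-fold), of which F3 and Ccnd1 are also expressed by fibroblasts. Under the label Pla2g3-/-, coculture left 8 higher and 7 lower (median 0.28; 11.4% and 7.30% of all genes). Between cocultures 2 were higher and 11 lower under the label Pla2g3-/- (median -0.88; 9.10% and 10.4% of all genes). On Lpar1-/- fibroblasts 0 were higher and 13 lower (median -1.13; 11.3% and 8.84% of all genes). Tnf, the inflammatory cytokine, read -1.78, -1.80, 2.04, -6.47, 2.58 and -7.33, which made it 366-fold and 958-fold lower in the null cocultures. It followed the order of Egr2, with the wild-type cocultures on top, the arrays without fibroblasts in between and the Lpar1-/- coculture at the bottom. Ccl1, a chemokine, was 5.82-fold and 29.8-fold lower, Socs3 was 7.27-fold lower under the label Pla2g3-/-, and Il13 was 7.38-fold lower on Lpar1-/- fibroblasts.

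The genes whose pattern was most like that of Egr1, by the root mean square difference of centred log2 levels over the 6 arrays among 19695 genes well above background on all of them, were Rgcc (0.36), Clec10a (0.41), Mlf1 (0.44), an unnamed probe (0.45) and Rasgef1b (0.45). Clec10a, a lectin of macrophages and dendritic cells, read 2.44, 2.64, 4.19, -0.77, 4.35 and -1.03, with the groups in the same order as for Egr1. For Nr4a1 they were Gpnmb (0.31), Ccl7 (0.32), Cox6a2 (0.43), Rasgef1b (0.47) and Bcl2a1d (0.57). Ccl7, a monocyte chemokine, read 2.90, 3.14, 5.87, 0.79, 5.91 and 0.37. Rasgef1b, a Ras guanine exchange factor, was near both. Among the members, the closest pairs by the same measure were Egr3 with Nr4a2 (0.53), Egr2 with Nr4a3 (0.54) and Egr2 with Nr4a1 (0.68), and the farthest was Egr4 with Nab1 (2.96). Pairs with Egr3, Egr4 or Nr4a3 include arrays where the probe was not well above background.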

How the data were processed

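Per the file headers, the authors extracted the spot intensity of single-colour (Cy3) arrays with Agilent Feature Extraction 12.1.1.1, including background subtraction and a surrogate for dim spots, which affects the dimmest values. The value table deposited with the arrays is a signal on a linear scale: per array, it is the processed intensity over 1 constant (1268.76, 1230.44, 1469.88, 1243.09, 1520.37 and 1458.71 in the order of the groups); its medians were 0.0357, 0.0338, 0.0439, 0.0448, 0.0428 and 0.0483. Its scale and direction were thereby settled, and no centring was found.

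Levels are log2 of processed intensity minus the array's 75th percentile over 43020 noncontrol spots. Spots marked as outliers were left out (84 to 115 on an array) and repeated spots averaged, which left 39416 of 39429 probes. The brightest probe stood for each of 29590 genes, and 7563 genes had several. Accessions named 32967 spots through GRCm38.p6 gene names, symbols 3087 and synonyms 16, and 6930 kept the file's name. A gene was dim only where all its probes were. Differences are between single arrays, counted at 2-fold; where 1 array was dim they are bounds, and where both were, none was given. Python 3.11.15, numpy 2.4.6, pandas 2.3.3 and limma 3.58.1 (R 4.3.3; normexp with offset 50) were used, and the calculation was tested on simulated data.

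The members and gene lists were chosen with earlier results of these data known. Named genes were the members, up to 3 highest and 3 lowest genes past 2-fold of each list and comparison, up to 3 highest of each marker list, the 5 genes most like Egr1 and Nr4a1, and Pla2g3 and Lpar1. Other genes (Xcr1, Mrc1, Mrgprb1, Tpsab1, Hdc, Thy1, Acta2) were named after their values were seen. The settings tried were normexp, quantile normalization, another percentile, other filters on dim probes, other probe rules and other fold limits; the marker sum without Cd68 was added after the values were seen. Pooling and 1 array per group limit the precision of every value. Hybridisation and scan batches beyond the slide are not given in the sources used here.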

Additional observations from a re-analysis of the deposited data

Results flagged for a closer look

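For 4 members the step onto wild-type fibroblasts passed 2-fold upwards in Pla2g3+/+ mast cells and downwards under the label Pla2g3-/-. Nr4a2, Egr3, Egr4 and Nab1 moved in the same directions but did not pass 2-fold in both steps. The share of all genes that reversed in this way was not counted. The difference between both steps was not tested because each group had 1 array. It was -5.49 on the log2 scale for Nr4a1, -5.35 for Egr2 and -3.85 for Egr1. For Nr4a3 it was -3.46 or lower, since the coculture labelled Pla2g3-/- was not well above background. With normexp background correction Nr4a3 no longer passed 2-fold in either step (0.63 and -0.28) or in the difference (-0.91). The slide cancels in these differences, and Pla2g3 itself was higher, not lower, on the arrays labelled Pla2g3-/-.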

How the results depend on the processing

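Of the 168 recomputed counts of members, 156 stayed within 1.5 times the count reported. Many of the reported counts were 0, and each 0 that stayed 0 is among the 156. All 405 recomputed differences of called members kept their sign, 398 of them past 2-fold. The 405 include settings that could not move a difference: the 1.5-fold and 3-fold limits and the restriction to probes well above background on all 6 arrays. The authors' value table, the same intensity over a constant, could hardly move one either, and its 18 counts are among the 156. With only probes well above background on all 6 arrays, which leaves 6 members, 5 were higher in the Pla2g3+/+ coculture, 5 lower in each null coculture against its wild-type partner, 5 lower in the difference of coculture effects and 3 lower on Lpar1-/- fibroblasts than without fibroblasts; the last count was also 3 with normexp. In the coculture labelled Pla2g3-/-, 1 member (Nab2) was higher with quantile normalization, with the percentile of well-measured probes and at 1.5-fold, against 0 reported. In the wild-type pair 1 member (Egr4) was higher at 1.5-fold. Between the null cocultures 1 member (Egr3) was higher with no filter on dim probes and 0 were lower at 3-fold, against 3 at 2-fold. No paired analysis was possible because each group had 1 array. Signal over background limits Egr3, Egr4 and Nr4a3, whose low values are bounds.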

Other observations

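Fos, the AP-1 subunit often induced together with Egr1, did not share its pattern: it read 0.41, 1.78, -0.99, -2.42, -0.15 and -2.36, with the arrays without fibroblasts highest. Klf2, a quiescence factor of lymphocytes and endothelium, read 3.28, 3.62, 2.41, -2.02, 1.89 and -1.12, so both of its wild-type cocultures lay below the arrays without fibroblasts and its null cocultures far below. Ccn2, a matricellular gene that fibroblasts express, read -8.99, -8.82, -5.02, -4.35, -5.29 and -1.76, highest in the Lpar1-/- coculture, and it was not well above background without fibroblasts. These genes were singled out after their values were seen.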
